A study of Mus musculus with 4 samples.

Results

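The endoplasmic reticulum (ER) chaperones and the secretory machinery of activated mouse B cells were read as a set of 42 genes, taken by symbol from the array. All 42 had probes, 61 of the 39429 on the array, and 60 of these carry the current symbol while the other (D530017H19Rik, an older name of Syvn1) was matched through RefSeq. The genes were read in 5 groups by role, namely the stress sensors with their transcription factor (4 genes), chaperones and folding enzymes (15), ER-associated degradation (8), the translocon (9), and signal peptidase with oligosaccharyltransferase (6). B cells came from spleens of male mice aged 71 to 77 days, by magnetic bead purification. They were activated over 3 days through their antigen receptor (anti-IgM, 10 µg/mL) and through CD40, the receptor that receives T cell help (antibody clone FGK4.5, 10 µg/mL). One group came from Ackr4-deficient mice (Ackr4ko) and the other from C57BL/6 mice (WT), and cells of both groups received the same stimulation. The sources used here do not describe the Ackr4 allele or say how many mice gave cells for an array. Total RNA was hybridised to 1-colour Agilent arrays, with 1 Ackr4ko and 1 WT array in each of 2 independent experiments with different donors, so there were 2 arrays per genotype.

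Proteins that enter the secretory pathway are threaded through the Sec61 translocon, lose their signal peptide, receive N-linked sugars and fold with the help of lumenal chaperones such as BiP and GRP94. Proteins that fail to fold are pulled back into the cytosol and degraded. When unfolded proteins accumulate, the sensors IRE1, PERK and ATF6 start the unfolded protein response, in which spliced XBP1 and cleaved ATF6 raise chaperone genes, while PERK acts through ATF4. B cells enlarge this machinery as they become antibody-secreting plasma cells, and XBP1 is needed for that step.

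The deposited files disagree on which genotype an array belongs to, and this touches every direction between the genotypes given here. The authors' value table was set against the scanner files over the 16207 probes that every array measured above background. For each of its 4 columns, the closest scanner array was the one labelled with the opposite genotype of that experiment (r = 0.9990 to 1.0000, against 0.979 to 0.986 for the array of the same label). Groups are therefore called "labelled Ackr4ko" and "labelled WT" after the scanner files. If the value table's labels hold instead, every sign of a difference between the genotypes is inverted and sizes stay. Differences between the experiments keep their signs, since the labels are exchanged within an experiment. Ackr4 could not decide this, because 0 of the 4 arrays had either of its probes above background. Their log2 signals were 2.35 to 3.39 on the arrays labelled Ackr4ko, against 2.74 to 4.69 on those labelled WT.

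The array labelled WT of experiment 2 differed from the other 3 in quality: outlier flags covered 6.24% of its spots, against 1.79% to 2.12%, and it had a highest local background of 292 against 61 to 76. The 75th percentile of the signal was 1277 and 740 for Ackr4ko, against 916 and 913 for WT, and 0 spots were saturated. The B cell markers Cd79a, Cd79b, Ms4a1 and Pax5 stood well above background on each of the 4 arrays, as did 40 of the 42 ER genes. Ern1 did so on 3 arrays and Hyou1 on 2, both missing the array labelled WT of experiment 2. All 42 passed the filter (well above background on at least 2 arrays). Values below are log2 signals scaled to each array's 75th percentile, and levels are compared only between arrays for the same probe.

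Many genes of this set are known targets of ATF6 and XBP1 through the ER stress response element (ERSE), so its letters were looked for in the RefSeq promoter windows (250 bases before to 50 bases after the start, GRCm38.p6), which hold 35 of the 42 genes. The ERSE, CCAAT and CCACG with 9 bases between them, was found on either strand in 9 of these 35 promoters (25.7%), against 37 of all 27025 promoters (0.137%). The related ERSE-II, ATTGG and CCACG with 1 base between them, lay in 2 of the 35, Herpud1 and Dnajb11 (5.71%, against 0.0444% of all promoters). The XBP1 motif TGACGTGG was in 0 of the 35 (0.714% of all), and TGATGNAA, bound by ATF4 and its partners, was in 1, Herpud1 (4.51% of all). A match describes the letters of the window and shows no binding. The stretches that hold an ERSE or ERSE-II before the start are shown because Derl3, the gene with the largest difference in the set, has an ERSE. Capitals mark the element, written 5′ to 3′ on the gene's strand, so that an element on the opposite strand reads from CGTGG to ATTGG.
Derl3 (chr10:75893230-75893272, + strand): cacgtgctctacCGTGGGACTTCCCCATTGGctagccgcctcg
Hspa5 (chr2:34772013-34772055, + strand): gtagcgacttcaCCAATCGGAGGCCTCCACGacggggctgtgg
Hsp90b1, distal (chr10:86705626-86705668, − strand): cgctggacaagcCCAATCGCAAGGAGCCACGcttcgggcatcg
Hsp90b1, proximal (chr10:86705521-86705563, − strand): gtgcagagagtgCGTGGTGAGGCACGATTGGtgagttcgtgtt
Calr (chr8:84847063-84847105, − strand): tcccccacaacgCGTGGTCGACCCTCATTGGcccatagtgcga
Canx (chr11:50325788-50325830, − strand): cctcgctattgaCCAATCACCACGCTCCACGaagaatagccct
Pdia6 (chr12:17266479-17266521, + strand): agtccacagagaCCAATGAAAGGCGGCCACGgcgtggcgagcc
Dnajc3 (chr14:118937815-118937857, + strand): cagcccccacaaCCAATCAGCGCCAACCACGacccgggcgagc
Creld2 (chr15:88819508-88819550, + strand): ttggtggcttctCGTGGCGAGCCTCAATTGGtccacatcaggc
Syvn1 (chr19:6046520-6046562, + strand): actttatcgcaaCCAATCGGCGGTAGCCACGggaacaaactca
Herpud1, ERSE-II (chr8:94386365-94386399, + strand): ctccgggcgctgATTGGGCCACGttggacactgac

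The comparison of the genotypes asked how expression differs between activated B cells lacking Ackr4 and WT cells. The median log2 difference over the 42 genes (labelled Ackr4ko minus labelled WT) was 0.07, beside 0.08 over all 15961 tested genes (-0.04 and 0.02 after quantile normalization). The median size of the difference, whatever its sign, was 0.16 for the 42 and 0.24 for all genes. These sets were not matched for signal: 12797 of the 15961 genes had a probe above background on all 4 arrays, against 40 of the 42. Derl3, a Derlin of ER-associated degradation, was 3.43-fold brighter on the arrays labelled Ackr4ko. Outside it the differences ran from -0.74 for the disulfide isomerase Pdia4 to 0.64 for Mzb1. In these bulk cultures, fewer cells that express a gene and less of its RNA per cell cannot be told apart.

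Of the 42 genes, 0 were called by limma at an adjusted p under 0.05 without a block (0.0125% of all tested genes were called, 2 of 15961). At an unadjusted p under 0.05 the set held 1 gene, Derl3 (4.59% of all genes). The experiments pair the arrays, and with the experiment as a block limma called Derl3 (higher) and no other gene of the set, where 3.33% of all genes were called (2.04% higher and 1.3% lower). That fit gave every gene 1 common variance. After quantile normalization the fit with the block called 0 of 15961 genes (0%), Derl3 included. The variance in this second fit was not common to all genes. There Derl3 (difference 1.75) had a larger unadjusted limma p, 0.0230, than Pdia4 (difference -0.81), with 0.0160. Whether the scaling or the variance removed the call of Derl3 was not tested. The 95% intervals of the difference reached a median of 0.78 log2 units to either side. For 27 of the 42 genes the interval lay within 1 log2 unit of 0, so a missed threshold here does not show equal levels. Nothing in the sources says that the arrays of a group came from separate mice beyond the different donors of the 2 experiments, and an exact permutation test of 2 arrays against 2 cannot give a p below 0.333.

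Within the experiments, 17 of the 42 genes were brighter on the array labelled Ackr4ko in both (33% of all genes) and 11 were dimmer in both (20.9% of all), while 14 took opposite signs (46.1% of all). In 3 genes both experiments gave 1.5-fold or more in 1 direction (6% of all genes), Derl3 and Mzb1 (higher, where 3.72% of all genes were) and Pdia4 (lower, 2.28% of all). Values of the genotypes did not overlap in 8 of the 42 (29% of all genes), namely Derl3, Edem1, Sdf2l1 and Ddost (higher, 19% of all genes) and Pdia4, Dnajb9, Ssr1 and Rpn1 (lower, 10% of all). The median of the set was -0.03 in experiment 1 and 0.17 in experiment 2, beside -0.04 and 0.23 over all genes. The balance of 17 brighter and 11 dimmer turned to 11 and 15 after quantile normalization and to 14 and 14 after scaling to the median. These counts stand beside the shares of all genes without a test.

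**Figure D1:**
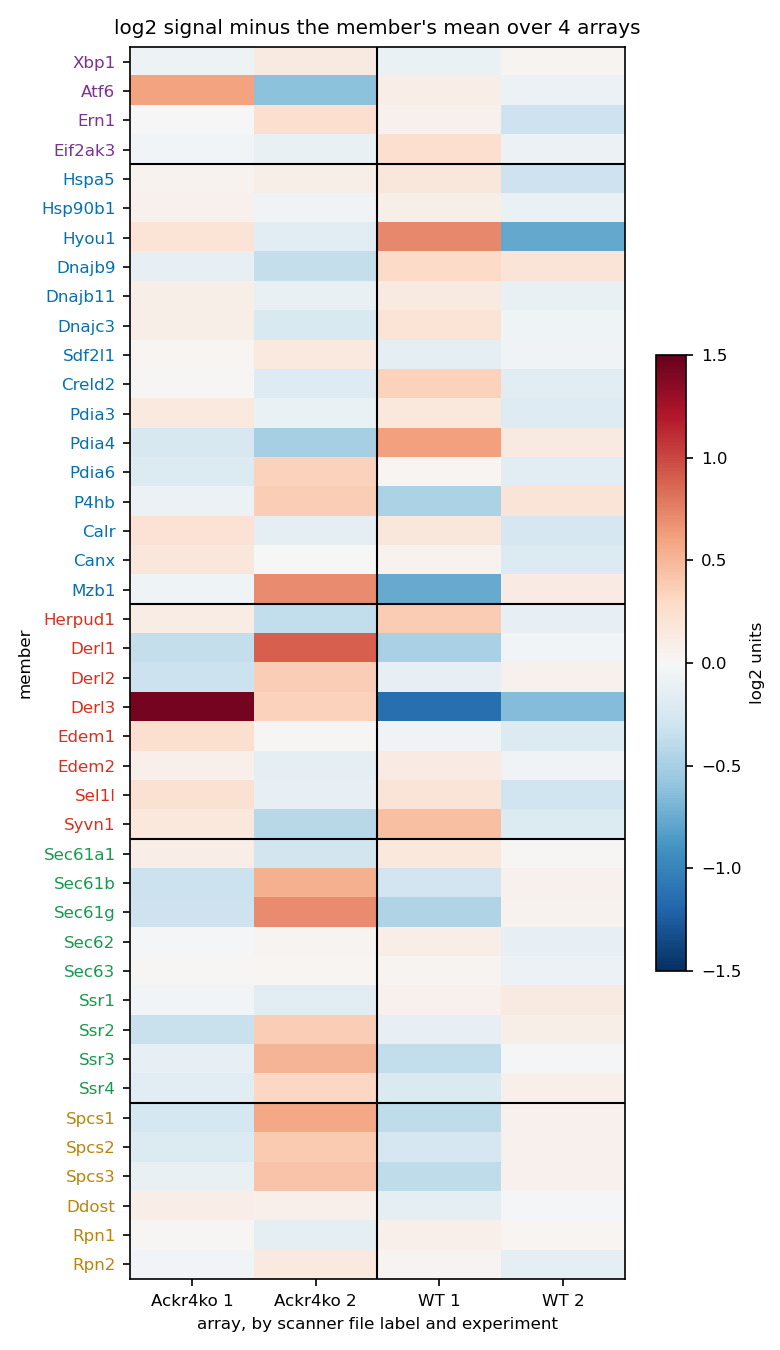
Log2 signal of each of the 42 genes on each of the 4 arrays (columns, by scanner file label and experiment), minus the gene's own mean, in 5 blocks by role (colour of the names). Derl3 is above its mean on both arrays labelled Ackr4ko and below it on both labelled WT, while Sec61b, Sec61g, Ssr2 to Ssr4 and Spcs1 to Spcs3 are highest on the array labelled Ackr4ko of experiment 2.

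**Figure D2:**
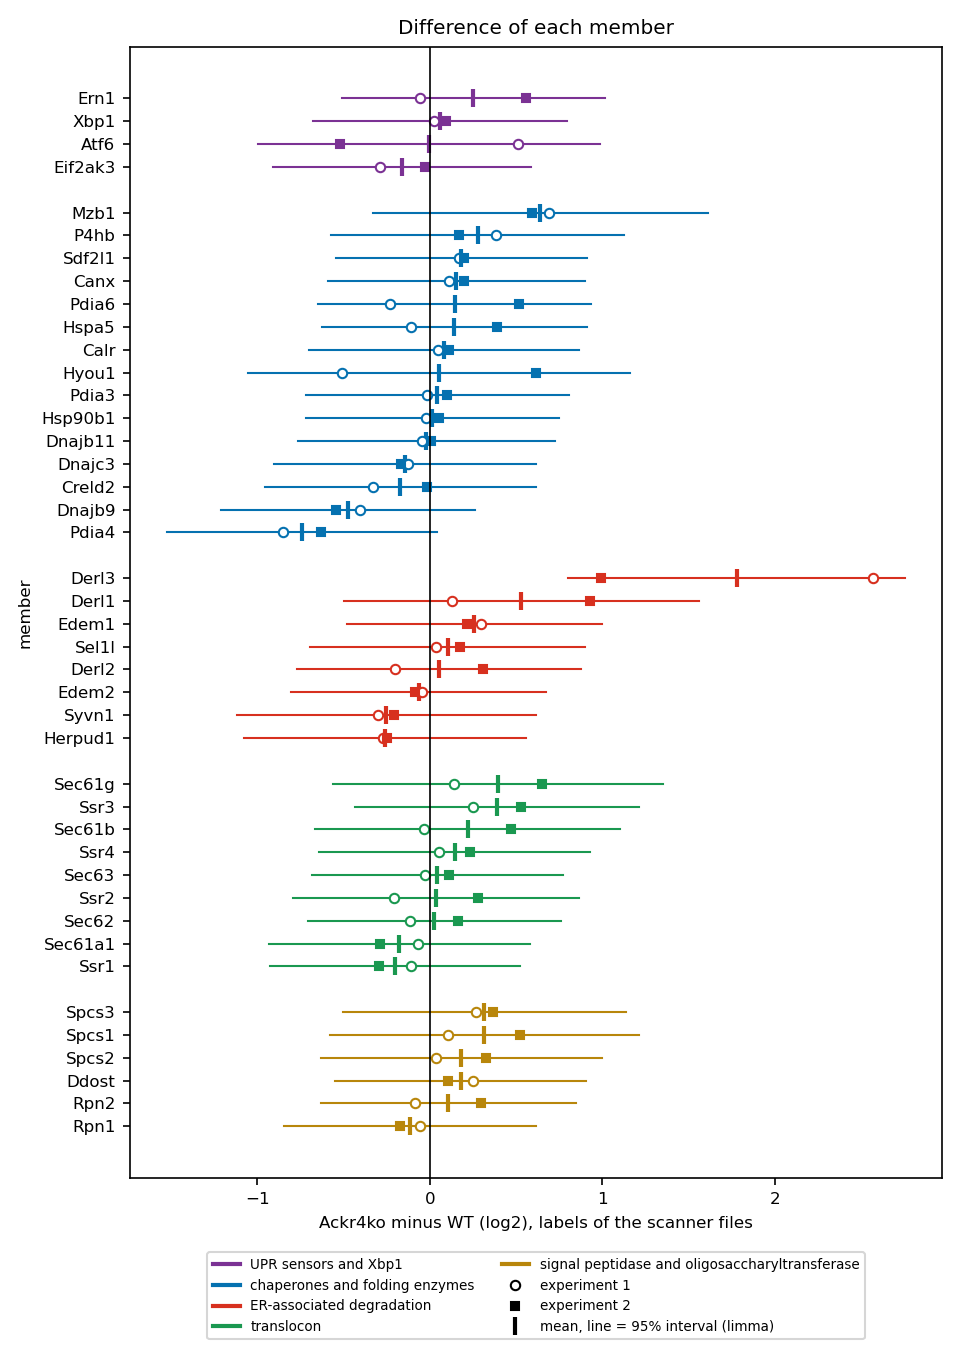
Log2 difference of each gene, labelled Ackr4ko minus labelled WT, in experiment 1 (open circles) and experiment 2 (squares), with the mean (bar) and limma's 95% interval (line), grouped by role. The interval of Derl3 (0.80 to 2.76) lies above 0, and those of the other 41 genes cross it.

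The sensors and their transcription factor did not pass the test. Their median difference was 0.03 (-0.02 in experiment 1 and 0.03 in experiment 2). Xbp1, the transcription factor whose mRNA IRE1 splices, had log2 signals of 13.85 and 14.06 on the arrays labelled Ackr4ko, against 13.83 and 13.97 on those labelled WT (experiments 1 and 2). Its difference was 0.06 (95% interval -0.68 to 0.79), and its splicing was not measured. Ern1, which encodes IRE1 and had the largest difference of the group, gave 6.81 and 7.05 on the arrays labelled Ackr4ko, against 6.86 and 6.49 on those labelled WT. The value of 6.49 was not well above background, and the genotypes overlapped (difference 0.25 ± 0.34, SE, n = 2 per group, and -0.04 with normexp background correction). Its other 3 probes were not above background on any array. Eif2ak3, which encodes PERK, gave 10.51 and 10.44 on the arrays labelled Ackr4ko, against 10.80 and 10.46 on those labelled WT, and again the genotypes overlapped (-0.16 ± 0.33, SE, and 0.01 without the array labelled WT of experiment 1). Atf6 gave 8.84 and 7.63 on the arrays labelled Ackr4ko, against 8.33 and 8.15 on those labelled WT. The 2 experiments opposed each other for Atf6, with differences of 0.51 and -0.52.

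Among the chaperones and folding enzymes, 5 of 15 genes were brighter on the array labelled Ackr4ko in both experiments and 4 were dimmer in both, with a median difference of 0.05. That median was -0.08 without the array labelled Ackr4ko of experiment 1 and -0.13 without the array labelled WT of experiment 2. Hspa5, which encodes BiP, the Hsp70 of the ER lumen and the protein held by the sensors at rest, had log2 signals of 15.07 and 15.10 on the arrays labelled Ackr4ko, against 15.18 and 14.71 on those labelled WT. Its difference was 0.14 (95% interval -0.63 to 0.91), and the values overlapped. Hsp90b1, which encodes GRP94, differed by 0.01 (-0.72 to 0.75), Sdf2l1, a BiP-associated cochaperone, by 0.18 (-0.54 to 0.91), and Creld2, a folding factor and marker of ER stress, by -0.17 (-0.96 to 0.62).

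Pdia4, a protein disulfide isomerase of the lumen also known as ERp72, was the lowest of the set. Its log2 signals were 10.20 and 9.94 on the arrays labelled Ackr4ko, against 11.05 and 10.57 on those labelled WT (probe at 47746516 to 47746575 on chromosome 6, mm9). Both values of one label lay below both of the other, and the difference was -0.74 ± 0.34 (SE, n = 2 per group, limma adjusted p = 1.00, and adjusted p = 0.380 with the block). Dnajb9, an XBP1 target that helps BiP to silence IRE1, also kept the genotypes apart, at 9.75 and 9.52 on the arrays labelled Ackr4ko, against 10.16 and 10.06 on those labelled WT. Its difference of -0.47 ± 0.32 (SE) did not pass either (limma adjusted p = 1.00, and adjusted p = 0.803 with the block). The other tested probe of Dnajb9 gave -0.21, and there the genotypes overlapped. That probe was not well above background on the array labelled WT of experiment 2. Among the other J proteins, which serve BiP as cochaperones, Dnajc3 gave -0.15 and Dnajb11 -0.02.

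Mzb1, a cochaperone of GRP94 in marginal zone B cells and plasma cells that aids the assembly of IgM, had the second highest difference of the set. Its log2 signals were 15.70 and 16.48 on the arrays labelled Ackr4ko, against 15.01 and 15.89 on those labelled WT. In each experiment the array labelled Ackr4ko was brighter (0.69 and 0.59), but experiment 2 was brighter on both labels, so the genotypes overlapped (0.64 ± 0.43, SE, 0.20 to 1.08 with 1 array left out, limma adjusted p = 1.00, and adjusted p = 0.537 with the block). The remaining disulfide isomerases gave 0.28 (P4hb), 0.14 (Pdia6) and 0.04 (Pdia3), and the lectin chaperones of glycoproteins 0.15 (Canx) and 0.08 (Calr). Hyou1, the large Hsp70 of the lumen, gave 0.05 from opposite values of -0.51 and 0.61 in experiments 1 and 2. The second of these has no measured basis, since its probe was well above background on neither array of experiment 2.

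Derl3 stood apart within ER-associated degradation, where 4 of 8 genes were brighter on the array labelled Ackr4ko in both experiments and 3 dimmer, with a median difference of 0.08. Derlins are membrane proteins of the channel through which misfolded proteins leave the ER, and Derl3 is the family member tied most closely to the XBP1 programme of secretory cells. Its log2 signals were 10.86 and 9.78 on the arrays labelled Ackr4ko, against 8.30 and 8.79 on those labelled WT (probe at 75358503 to 75358562 on chromosome 10, mm9). Both arrays labelled Ackr4ko lay above both labelled WT, by 2.57 in experiment 1 and 0.99 in experiment 2. The means were 10.32 ± 0.77 and 8.54 ± 0.35 (SD, n = 2 each), a difference of 1.78 ± 0.43 (SE). Without a block it missed the threshold (limma adjusted p = 0.417), with the block it was called higher (limma adjusted p = 3.40e-05), and with the block after quantile normalization it was not (limma adjusted p = 0.516). With 1 array left out the difference stayed between 1.24 and 2.32, the lower value without the array labelled Ackr4ko of experiment 1. Derl3 rests on 1 probe.

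The other Derlins, which act in the same channel, gave smaller values. Derl1 was at 11.61 and 12.86 on the arrays labelled Ackr4ko, against 11.48 and 11.93 on those labelled WT, and the genotypes overlapped (0.53 ± 0.45, SE). Its other tested probe gave -0.01. Among the 12 genes of the set with several tested probes, only Sec62 disagreed more between probes (0.03 and 1.08). The Sec62 probe at 1.08 was dim, and on the array labelled WT of experiment 2 (4.72) it was not well above background. In 6 of the 12 genes all probes had 1 sign. Derl2 gave 0.05. The ubiquitin ligase Syvn1 (HRD1) gave -0.25 and its partner Sel1l 0.10, while Edem1 and Edem2, which trim mannose from glycoproteins to mark them for removal, gave 0.26 and -0.06. Herpud1, a stress-induced scaffold of the same ligase and the lowest gene of the group, gave 13.97 and 13.49 on the arrays labelled Ackr4ko, against 14.24 and 13.74 on those labelled WT, and the genotypes overlapped (-0.26 ± 0.36, SE, and -0.51 to -0.01 with 1 array left out).

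Markers of plasma cells, in which Derl3 and Mzb1 are abundant, were read beside these 2 genes. The summed signal of the 5 plasma cell markers (Sdc1, Prdm1, Jchain, Tnfrsf17 and Slamf7) was lower on the array labelled Ackr4ko in each experiment. It was 2765 and 1373 on the arrays labelled Ackr4ko, against 4240 and 1724 on those labelled WT. Most of this sum on each array came from Slamf7 and Jchain, and Jchain took opposite signs (-1.31 in experiment 1 and 0.80 in experiment 2). The summed signals of the B cell markers and of the macrophage and monocyte markers were also lower on the array labelled Ackr4ko in each experiment. Of the 11 B cell markers, however, 8 took opposite signs in the 2 experiments, 1 was brighter in both and 2 dimmer. Most of the macrophage and monocyte sum on each array was Mpeg1. Of the 4 tested markers of that list, 1 (Cd68) was brighter in both experiments and 2 dimmer, and Lyz2, Cd14 and Vcam1 were well above background on 0 arrays. The sum of the neutrophil markers was higher in each, and that of the T cell markers took opposite signs. The neutrophil sum came mostly from Ly6g (difference 0.72) and Elane (-0.08), since S100a8, S100a9 and Ngp were well above background on 0 arrays. Among the plasma cell markers, Tnfrsf17 was well above background on 0 arrays. Of the 4 tested markers 0 were brighter on the array labelled Ackr4ko in both experiments and 1, Slamf7, was dimmer in both. The summed signal of the 8 dendritic cell markers was 62766 and 75399 on the arrays labelled Ackr4ko, against 64524 and 62971 on those labelled WT. Most of this sum on each array was the signal of 1 gene, Siglech, so it says little about the other markers. Their defining markers Itgax, Xcr1 and Clec9a were well above background on 0 arrays, and Fscn1 and Batf3 were above it on 2 arrays, neither of them labelled WT, so they passed the filter through the brighter label. Flt3 and Zbtb46, measured on all 4 arrays, differed by 1.07 and 1.00, each brighter on the array labelled Ackr4ko in both experiments, and Siglech by -0.01. The part of these cells in the signal of Derl3 was not tested.

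**Figure D3:**
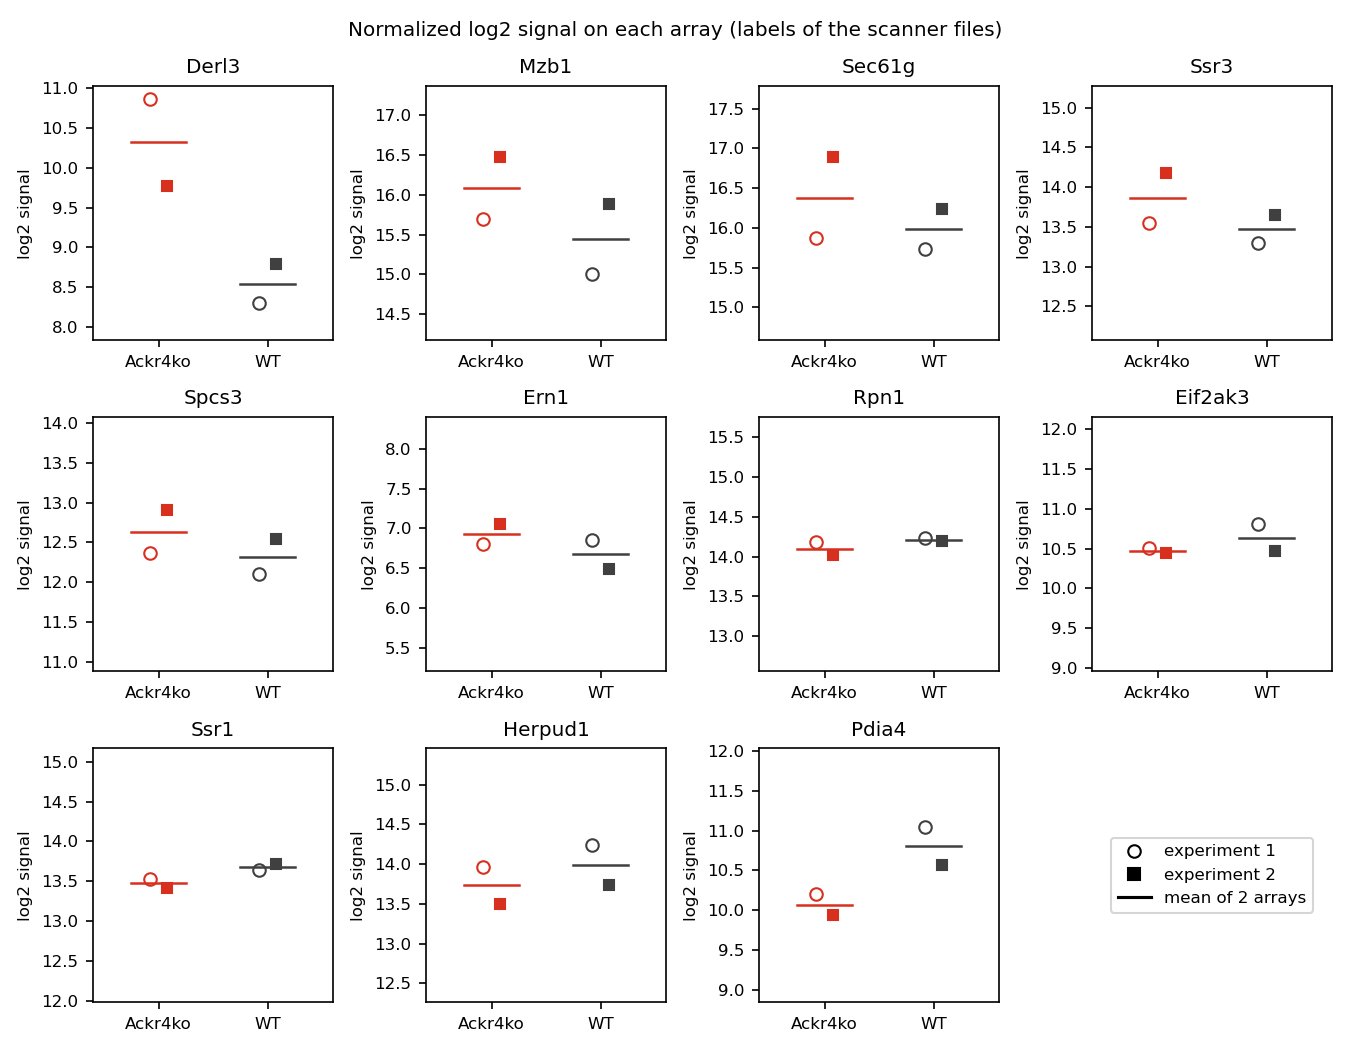
Normalized log2 signal of the 11 genes with the largest difference in either direction, or the smallest p, in their role group, on each array (circle, experiment 1; square, experiment 2) with the mean of 2 arrays, labelled Ackr4ko on the left and labelled WT on the right. Every panel spans the same number of log2 units, and the labels separate in Derl3, Pdia4, Ssr1 and Rpn1.

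The translocon genes had a median difference of 0.04, with 3 of 9 brighter and 2 dimmer on the array labelled Ackr4ko in both experiments. The median was 0.38 without the array labelled Ackr4ko of experiment 1 and -0.09 without that of experiment 2. Sec61g, the small gamma subunit of the channel, gave 15.87 and 16.89 on the arrays labelled Ackr4ko, against 15.73 and 16.24 on those labelled WT. The array labelled Ackr4ko of experiment 2 was the highest, and the genotypes overlapped (0.39 ± 0.42, SE, and -0.11 without that array). Ssr3, the gamma subunit of the TRAP complex that assists the channel, followed the same order of arrays, at 13.55 and 14.18 on those labelled Ackr4ko, against 13.30 and 13.65 on those labelled WT (0.39 ± 0.36, SE, and 0.08 to 0.70 with 1 array left out). Ssr1, the TRAP alpha subunit, was lower, at 13.53 and 13.42 on the arrays labelled Ackr4ko, against 13.64 and 13.71 on those labelled WT. Its values did not overlap, but its difference of -0.20 ± 0.32 (SE) was smaller than its error, and its 2 other probes gave 0.07 and 0.14 (mean of the probes 0.0024). The channel subunits Sec61a1 and Sec61b gave -0.18 and 0.22, and Sec62 and Sec63, which serve translocation after translation, gave 0.03 and 0.04 by their brightest probes.

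Signal peptidase, which removes signal peptides, and oligosaccharyltransferase, which attaches N-linked sugars, had the highest median of the 5 groups, at 0.18 (0.07 in experiment 1 and 0.31 in experiment 2, and -0.01 without the array labelled Ackr4ko of experiment 2). Of 6 genes, 4 were brighter on the array labelled Ackr4ko in both experiments and 1, Rpn1, was dimmer. Spcs3, a signal peptidase subunit, gave 12.37 and 12.91 on the arrays labelled Ackr4ko, against 12.10 and 12.54 on those labelled WT. The genotypes overlapped (0.32 ± 0.36, SE, and 0.05 to 0.59 with 1 array left out). The other tested probe of Spcs3 took opposite signs, with -0.17 in experiment 1 and 1.19 in experiment 2. The oligosaccharyltransferase subunit Rpn1 gave 14.18 and 14.02 on the arrays labelled Ackr4ko, against 14.24 and 14.19 on those labelled WT, which did not overlap but lay close together (-0.11 ± 0.32, SE). Spcs1 and Spcs2 gave 0.32 and 0.18 (-0.04 by the other tested probe of Spcs2), Ddost 0.18 and Rpn2 0.11.

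Of the 9 genes with an ERSE in the promoter window, 3 were brighter on the array labelled Ackr4ko in both experiments and 3 dimmer, against 11 and 7 of the 26 with a window but no ERSE. Their median difference was 0.08 in both sets. Without Derl3, the 8 other genes with an ERSE ran from -0.25 (Syvn1) to 0.15 (Canx). The intervals of these 8 genes all cross 0, so their signs are unsettled. The 26 genes without an ERSE include Herpud1 and Dnajb11, which hold an ERSE-II. Whether the element bears on the difference of Derl3 was not tested.

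**Figure D4:**
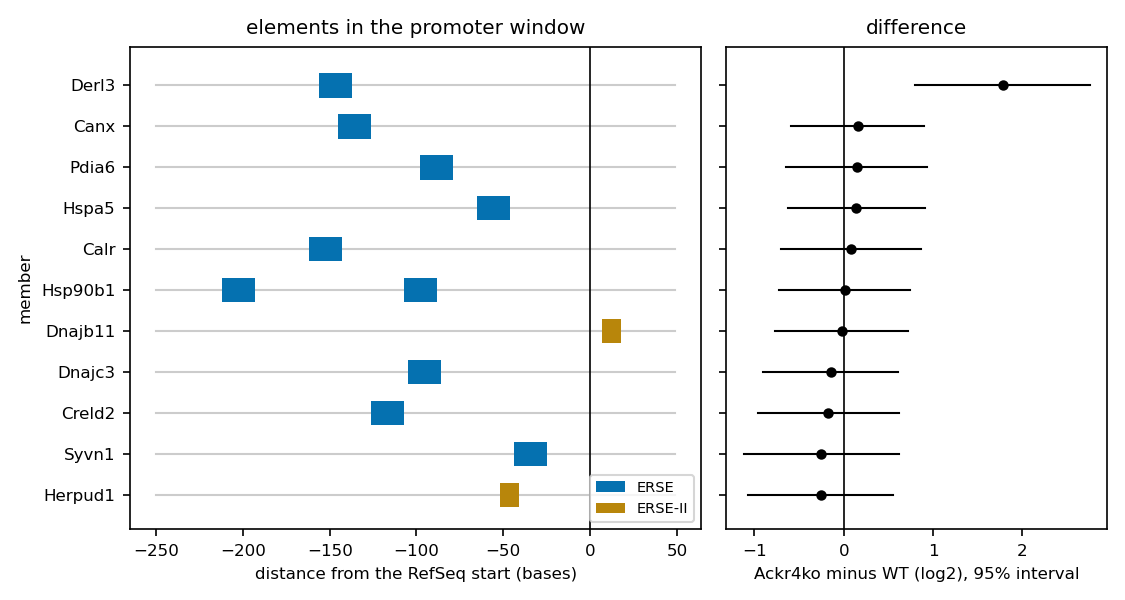
Left, position of each ERSE (blue) and ERSE-II (gold) from the RefSeq start in the promoter windows of 11 genes, in bases. Right, the log2 difference of the same genes, labelled Ackr4ko minus labelled WT, with limma's 95% interval. The interval of Derl3 lies above 0 and those of the other 10 genes cross 0.

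The arrays were also compared by experiment, since both genotypes were cultured in each. Of the 42 genes, 17 were higher in experiment 2 than in experiment 1 (51.8% of all genes were), and limma called 0 (0% of all genes, 0 of 15961), with 2 at an unadjusted p under 0.05 (9.81% of all). With genotype as a term it again called 0 of the 42 (4.07% of all genes), with 5 at an unadjusted p under 0.05 (15.8% of all). The chaperones had a median of -0.22 (experiment 2 minus experiment 1) with 11 of 15 lower in experiment 2, and the degradation genes -0.25 with 6 of 8 lower. The translocon had a median of 0.38 and signal peptidase with oligosaccharyltransferase 0.25, with 5 of 9 and 5 of 6 higher in experiment 2. Derl1 gave 0.85 ± 0.36 (SE, limma adjusted p = 0.510) by its brightest probe. Its other tested probe, well above background on all 4 arrays, went the other way. That probe had 10.82 (labelled Ackr4ko) and 10.85 (labelled WT) in experiment 1, against 10.54 and 10.54 in experiment 2. Hyou1, one of the 2 at the unadjusted threshold, was not above background in experiment 2, so its value there is only a bound. Sec61g, in experiment 2, had 16.89 on the array labelled Ackr4ko and 16.24 on that labelled WT, against 15.87 and 15.73 in experiment 1 (0.76 ± 0.31, SE, limma adjusted p = 0.504). The array labelled Ackr4ko of experiment 2 held the highest value for 17 of the 42 genes (40.5%, against 45.3% of all genes), for 5 of 9 translocon genes and 4 of 6 of the last group, but for 4 of 15 chaperones. The array labelled WT of experiment 1 was the highest for 9 of 15 chaperones (28.7% of all genes were highest there). Over the 4 arrays a gene of the set spanned a median of 0.53 log2 units, against 0.71 over all genes, which were not matched for signal.

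Other genes of the pathway were read from lists by function, written with earlier results of these data known. Of 18 tested genes of further folding and quality control, limma called 0 without a block and 1 higher with it. That gene was Ero1a, the oxidase that recharges disulfide isomerases, with 10.31 and 10.06 on the arrays labelled Ackr4ko, against 7.91 and 8.98 on those labelled WT (1.74 ± 0.41, SE, limma adjusted p = 0.408, and adjusted p = 5.36e-05 with the block, and adjusted p = 0.511 with the block after quantile normalization). Its values did not overlap. Mogs, the glucosidase that trims new N-linked sugars, gave -0.73 ± 0.41 (SE). The list had a median of 0.15, with 9 genes brighter on the array labelled Ackr4ko in both experiments and 4 dimmer.

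The next 3 lists held no called gene with or without the block. Further degradation genes (17 tested, median 0.11, 7 brighter and 3 dimmer in both experiments) had their smallest p in Ngly1, which strips N-glycans from retrotranslocated proteins (0.47 ± 0.32, SE), and Faf2 (0.59 ± 0.43). Further targeting and translocation genes (22 tested, median 0.18, 11 brighter and 3 dimmer) were led by the signal recognition particle subunit Srp54a (1.05 ± 0.34) and the beta subunit of its receptor, Srprb (0.90 ± 0.34). Srp54a had 9.83 and 10.23 on the arrays labelled Ackr4ko, against 9.08 and 8.88 on those labelled WT, with no overlap (limma adjusted p = 0.731, and adjusted p = 0.0663 with the block). Genes of ER to Golgi transport (25 tested, median 0.16, 11 brighter and 5 dimmer) were led by the COPII coat gene Sec23a (0.73 ± 0.35) and Preb (0.57 ± 0.32), the exchange factor that starts that coat. The plasma cell programme (9 tested, median -0.35) also held no called gene, with Ell2, an elongation factor of secretory Ig mRNA, at 0.64 ± 0.33 and Creb3l2, above background on 2 of the 4 arrays, at -0.57 ± 0.44.

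A list named for the PERK and ATF4 branch of the unfolded protein response was read in the same way. Of 11 tested genes, 8 were brighter on the array labelled Ackr4ko in both experiments and 0 dimmer (33% and 20.9% of all genes), with a median difference of 0.69. limma called 0 without a block and 4 higher with it, Trib3, Asns, Chac1 and Atf3 (2.04% of all genes), and 0 with the block after quantile normalization. Atf3 was above background on 2 arrays, neither labelled WT, and Chac1 on 3. Trib3, a pseudokinase induced by ATF4, had 10.53 and 10.04 on the arrays labelled Ackr4ko, against 7.87 and 7.48 on those labelled WT, and Asns, which makes asparagine, differed by 3.05 ± 0.41 (SE). Whether this list differs from the ER genes was not tested, nor was the signal behind its values. Atf4 itself gave 0.35 and Ddit3, which encodes CHOP, 0.69.

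**Figure D5:**
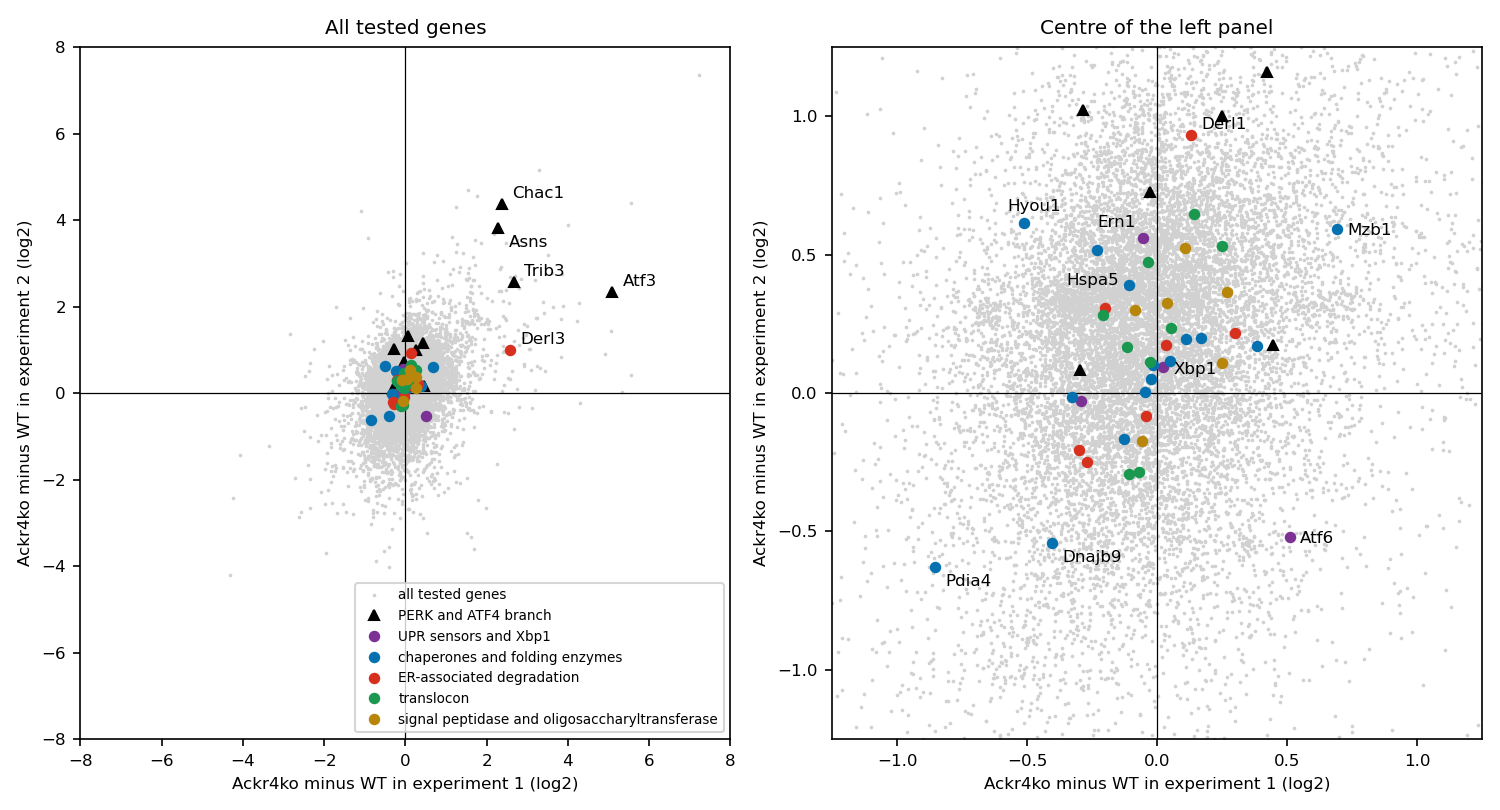
Log2 difference, labelled Ackr4ko minus labelled WT, in experiment 1 (horizontal) and experiment 2 (vertical) for all 15961 tested genes (grey), the 42 ER genes by role (colours) and the PERK and ATF4 branch (triangles); the right panel enlarges the centre. The ER genes lie near the centre apart from Derl3, while Trib3, Asns, Chac1 and Atf3 lie toward the upper right.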

How the data were processed

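Total RNA of the 4 cultures was hybridised to Agilent 1-colour arrays, all on 1 slide and in 1 scan. Spot intensity, per the file headers and the submitters' processing notes, was extracted by the authors with Agilent Feature Extraction 10.7.3.1 as background-corrected processed signal with quality flags. The authors' deposited value table also holds intensity on a linear scale. It served as an alternative only, and the order of its genotypes is unsettled.

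The scanner files' processed signals were scaled to the 75th percentile of their array on the log2 scale, outlier spots were left out, and the 4 spots of a probe were averaged. Testing needed 50% or more of a probe's spots above background on 2 or more arrays (20862 of 39429 probes), and the brightest tested probe stood for a gene. All 15961 genes were fitted with limma 3.58.1 (R 4.3.3; lmFit, eBayes, two-sided, Benjamini-Hochberg, threshold 0.05) without a block. On simulated data the fit without a block recovered 2.4% of genes changed by 1 log2 unit and 86.5% of those changed by 2. It made a mean of 0.8 false calls. The fit with the block recovered 44.2% and 99.6%, with a mean of 36 false calls. Experiment numbers pair the arrays, as the series description states, and deviations within an experiment correlated at 0.42. Alternatives were quantile and median scaling, normexp, other filters, the mean of probes, the value table, the experiment block and leaving out each array. The block after quantile normalization was added after seeing the data.

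Values on all arrays were given for genes called with or without the block, for those at least 1.5-fold different one way in both experiments, and for the highest, lowest and smallest-p gene of each role group. Some others (Xbp1, Atf6, Hspa5, Dnajb9 and Derl1) were chosen after their values were seen. From other lists the called genes or the 2 with the smallest p were named, while Chac1, Atf3, Atf4 and Ddit3 were chosen after their values were seen. The members and all lists were chosen with earlier results of these data known. The number of arrays limits the precision.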

Additional observations from a re-analysis of the deposited data

How the results depend on the processing

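The count of called ER genes was 0 under each scaling, background correction, filter and probe rule run, with the authors' value table, and without any 1 array. With the experiment as a replicate block it was 1 (Derl3), and with the block after quantile normalization, chosen after seeing the data, 0. The block changed no other call in the set. Derl3 had adjusted p values of 0.118 (without the array labelled WT of experiment 2) to 0.979 (quantile normalization) without a block, and its difference was above 0 in each of these fits of the scanner files. The counts brighter and dimmer in both experiments were 11 and 15 after quantile normalization, beside 17 and 11. The median of the sensors was -0.059 after quantile normalization, -0.037 after median scaling and -0.0093 with normexp, beside 0.03. After quantile normalization the medians of all 42 genes (-0.036), the chaperones (-0.038), degradation (-0.024) and the translocon (-0.035) were also below 0, as were those of the chaperones (-0.012) and the translocon (-0.020) after median scaling. The median of signal peptidase and oligosaccharyltransferase was 0.048 after quantile normalization, beside 0.18. In the value table under its own labels it was -0.048, and each column of that table matched the array of the opposite label best. Ern1 turned to -0.044 with normexp and Ssr1 to 0.0024 with the mean of its probes. Leaving out 1 array gave medians of -0.016 to 0.048 for the sensors, -0.13 to 0.14 for the chaperones, -0.092 to 0.38 for the translocon, 0.0027 to 0.19 for degradation, -0.0034 to 0.11 for all 42 genes (lowest without the array labelled WT of experiment 2) and -0.013 to 0.34 for the last group, and differences of -0.33 to 0.0098 for Eif2ak3 and -0.11 to 0.90 for Sec61g. The causes were not tested. The median of all genes in experiment 2 was 0.23, and 0.04 after quantile normalization. Ern1 and Hyou1 have no value where all 4 arrays had to be well above background. All these values rest on 2 arrays per genotype.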
